A study of Mus musculus with 12 samples.

Results

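The genes described here are 9 interferon-gamma-inducible genes of mouse ear: the guanylate-binding protein (GBP) genes Gbp2, Gbp3, Gbp5 and Gbp7, the immunity-related GTPase (IRG) genes Igtp, Irgm1, Iigp1 and Ifi47, and the transcription factor gene Irf1. They were taken by gene symbol from a table of 56691 genes, and all 9 passed the filter on low values, which left 15403 genes to test. Ear RNA of wild-type mice gave 12 sequencing libraries in 3 groups of 4. Blank mice were untreated, Model mice were given MC903 (a vitamin D analogue, applied to skin to raise inflammation like that of atopic dermatitis), and IsoL mice were given isoliensinine, a plant alkaloid. The strain, age, doses, times, and whether IsoL ears also received MC903 are not stated in the labels. The series calls its replicates biological, but no label ties a library to its own animal, so the p-values speak of the spread from library to library, which may be technical. The labels record no treatment for Blank, so an effect of application itself and one of MC903 cannot be told apart.

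Interferon-gamma, made mainly by T and NK cells, binds a receptor built of Ifngr1 and Ifngr2, and the kinases Jak1 and Jak2 pass the signal on to promoters that hold GAS elements. Irf1 is among the genes induced first, and its product binds ISRE elements and induces further genes, GBP and IRG genes among them. GBP and IRG proteins are GTPases that assemble on pathogen vacuoles and on bacteria, and GBPs help to trigger inflammasomes; in skin, interferon-gamma is best known for its action on keratinocytes, endothelium and macrophages.

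The promoters show which elements lie near the starts of these genes. Promoter windows of 300 bases, from 250 before to 50 after an annotated start, were read from RefSeq (GRCm38.p6), where 8 of the 9 genes had 10 windows. They were searched on both strands for the GAS motif TTCNNNGAA and the ISRE core GAAANNGAAA. The GAS motif was found for 4 genes and the ISRE core for 6, where a gene counts if any of its windows holds the motif. Of 12 type I interferon antiviral genes with windows, 6 held the ISRE core and 2 the GAS motif. Neither motif was thus found in the 9 genes only. The second windows of Gbp3 and Irf1 held neither motif. Counted per window rather than per gene, 8.30% of all 32851 windows of this length held the GAS motif, 3.44% the ISRE core and 0.454% both. The lines below give the motif in capitals with its flanks, 5′ to 3′ on the strand of the gene, and were chosen because each holds the motif that sets a gene among the carriers of GAS, ISRE or both.
Irf1, GAS, chr11:53769904-53769952, plus strand: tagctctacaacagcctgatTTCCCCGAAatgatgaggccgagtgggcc
Gbp5, GAS, chr3:142496862-142496910, plus strand: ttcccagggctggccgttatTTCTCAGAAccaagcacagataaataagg
Gbp5, ISRE core, chr3:142496749-142496798, plus strand: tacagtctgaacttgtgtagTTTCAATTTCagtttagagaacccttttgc
Gbp7, GAS, chr3:142530210-142530258, plus strand: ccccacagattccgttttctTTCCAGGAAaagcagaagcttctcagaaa
Gbp7, ISRE core, chr3:142530263-142530312, plus strand: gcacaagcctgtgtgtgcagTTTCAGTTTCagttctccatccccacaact
Gbp2, ISRE core, chr3:142620584-142620633, plus strand: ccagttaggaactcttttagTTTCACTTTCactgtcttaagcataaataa
Gbp3, ISRE core, chr3:142559979-142560028, plus strand: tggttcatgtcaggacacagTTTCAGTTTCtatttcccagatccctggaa
Igtp, GAS, chr11:58199491-58199539, plus strand: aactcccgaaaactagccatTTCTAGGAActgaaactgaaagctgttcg
Igtp, ISRE core, chr11:58199502-58199551, plus strand: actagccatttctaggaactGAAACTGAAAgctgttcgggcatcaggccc
Irgm1, ISRE core, chr11:48871415-48871464, minus strand: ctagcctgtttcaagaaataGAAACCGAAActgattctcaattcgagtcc

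In the GBP genes the ISRE core lay on the strand opposite to the gene, so the capitals read as its reverse complement; in Igtp and Irgm1 it lay on the gene's own strand. Irf1 carried a GAS motif 90 bases before its start and no ISRE core. Gbp2, Gbp3 and Irgm1 carried the ISRE core only, Gbp5, Gbp7 and Igtp carried both, and Ifi47 carried neither in its window. In Igtp the GAS motif began 11 bases before the ISRE core, and the same spacing was found in its relatives Irgm2, Tgtp1 and Tgtp2. Gbp3 and Irgm1 each held a further ISRE core that overlapped the one shown, and Gbp5 and Gbp7 each held a further GAS motif. A match describes letters in a window and is not evidence of a bound site.

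All 9 genes rose in Model ears, by 2.33-fold (Gbp3) to 10.7-fold (Gbp2), and all 9 fell in IsoL ears relative to Model, by 2.09-fold (Iigp1) to 3.80-fold (Ifi47). Against Blank, IsoL ears had higher levels of Gbp2, Irf1, Ifi47, Iigp1, Igtp and Gbp5 and a lower level of Gbp3, while Gbp7 and Irgm1 were not called. Levels are given as CPM, read counts scaled to library size with TMM factors, which centre the libraries on the bulk of their genes. Genes were tested with edgeR's quasi-likelihood test on the deposited counts and called at a Benjamini-Hochberg adjusted p under 0.05 over all 15403 genes. Of all genes tested, 35.2% were higher in Model than in Blank, 25.1% were lower in IsoL than in Model, 36.5% were higher and 34.0% lower in IsoL than in Blank. The median log2 change over the 9 genes was 1.88 for Model against Blank, -1.40 for IsoL against Model and 0.54 for IsoL against Blank, beside -0.01, 0.01 and 0.02 over all genes. The 3 comparisons share libraries, so their values stand side by side and are not independent of each other.

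**Figure D1:**
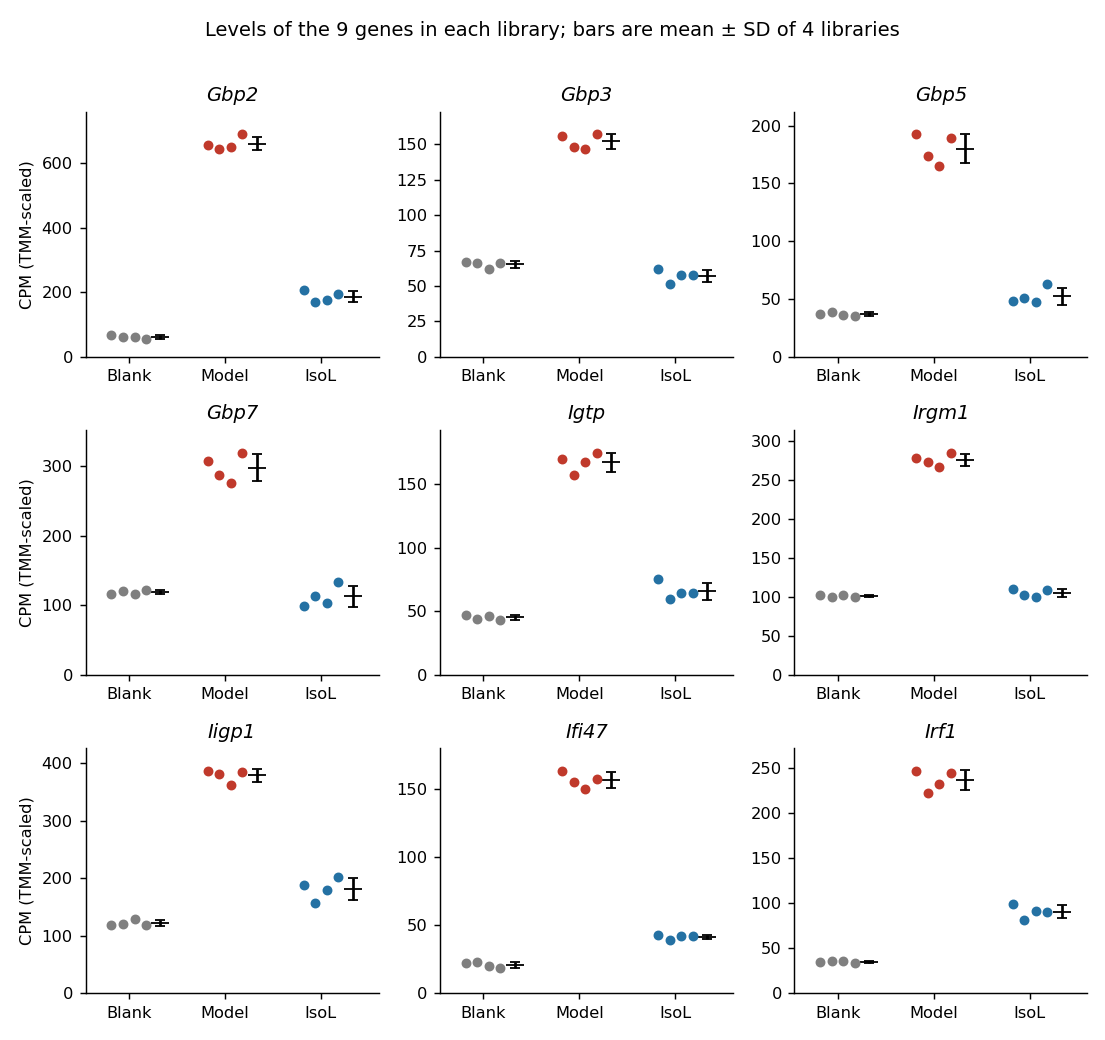
TMM-scaled CPM (y axis, from 0) of the 9 genes in each of the 12 libraries (points, in the order of their replicate numbers), with mean ± SD of 4 libraries. Every Model point lies above every Blank and IsoL point, and the IsoL and Blank points overlap for Gbp3, Gbp7 and Irgm1.

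The libraries held 13884927 to 18771831 counts, and the 9 genes had 319 to 10821 counts each per library. Without TMM scaling the median change over all genes moved to -0.15 in Model against Blank and to -0.18 in IsoL against Blank. Of the genes called, 5418 rose and 5376 fell in Model against Blank with TMM, and 4330 rose and 6840 fell without scaling factors; the corresponding counts were 5626 and 5234 against 4062 and 7255 for IsoL against Blank, and 3723 and 3868 against 2974 and 4587 for IsoL against Model.

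Irf1, the factor that relays the interferon-gamma signal to ISRE elements, had CPM values of 34.5, 35.8, 35.0 and 33.3 in the Blank libraries (replicates 1 to 4 in order, as throughout), 247, 223, 232 and 244 in the Model libraries and 99.4, 81.6, 91.0 and 89.9 in the IsoL libraries. The 3 groups did not overlap, with Model highest and IsoL between. Irf1 rose by 2.77 ± 0.06 on the log2 scale (SE) in Model, a 6.82-fold change (edgeR adjusted p = 6.4e-24). In IsoL it was 2.61-fold below Model (edgeR adjusted p = 2.0e-17) and 2.61-fold above Blank (edgeR adjusted p = 4.4e-17).

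Gbp2, a GBP that coats vacuoles and bacteria in mouse cells, had CPM values of 68.5, 61.3, 60.9 and 55.6 in the Blank libraries, 656, 645, 651 and 688 in the Model libraries and 205, 170.2, 175 and 195 in the IsoL libraries. Its groups were separate, and its Model libraries lay within a coefficient of variation of 2.96%. The rise in Model was 3.42 ± 0.07 on the log2 scale (edgeR adjusted p = 1.0e-24), and the level in IsoL was 28.2% of that in Model and 303% of that in Blank. Gbp5, a GBP linked in mice to assembly of the Nlrp3 inflammasome, had CPM values of 37.2, 39.0, 36.1 and 35.0 in the Blank libraries, 192, 174, 165 and 189 in the Model libraries and 47.9, 50.6, 47.5 and 63.1 in the IsoL libraries. Each IsoL library lay above each Blank library, with IsoL replicate 4 the highest. Gbp5 rose 4.89-fold in Model and was 1.42-fold above Blank in IsoL, a log2 change of 0.51 ± 0.08 (edgeR adjusted p = 4.1e-06).

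Gbp3, a neighbour of Gbp2 in the same gene cluster, had CPM values of 67.1, 66.4, 61.7 and 66.0 in the Blank libraries, 156, 148, 147 and 157 in the Model libraries and 62.1, 51.6, 57.8 and 57.6 in the IsoL libraries. The Model libraries stood above all others, and IsoL replicate 1 overlapped Blank. Its rise in Model was the smallest of the 9, at 1.22 ± 0.05 on the log2 scale, and in IsoL it was below Blank by a log2 change of -0.19 ± 0.06 (edgeR adjusted p = 0.0041). Gbp7, reported in mouse macrophages to help assemble the phagocyte oxidase, had CPM values of 117, 120.4, 116 and 122 in the Blank libraries, 307, 288, 275 and 319 in the Model libraries and 99.0, 114, 104 and 134 in the IsoL libraries. The IsoL libraries spread across the Blank range, with 3 of them below every Blank library and replicate 4 above. The log2 change from Blank to IsoL was -0.08 ± 0.07 and was not called (edgeR adjusted p = 0.36). Without IsoL replicate 4 it was -0.17 and called (edgeR adjusted p = 0.0088).

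Among Ifi47, Iigp1, Igtp and Irgm1, Ifi47 changed most in both Model against Blank and IsoL against Model. Its CPM values were 21.7, 23.0, 19.7 and 18.5 in the Blank libraries, 164, 155, 150.4 and 158 in the Model libraries and 42.7, 39.1, 41.8 and 41.6 in the IsoL libraries. The groups were separate, and the IsoL libraries lay closer together than for any other of the 9 genes, with a coefficient of variation of 3.74%. Ifi47 rose 7.56-fold in Model and in IsoL was 3.80-fold below Model and 1.99-fold above Blank (edgeR adjusted p = 6.1e-24, 8.1e-20 and 3.0e-13).

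Iigp1, an effector IRG that damages parasite vacuoles, had CPM values of 119, 120.2, 129 and 118 in the Blank libraries, 387, 382, 362 and 384 in the Model libraries and 188, 156, 179.6 and 201 in the IsoL libraries. The groups were separate, with Blank replicate 3 above the other Blank libraries. It rose 3.12-fold in Model, and in IsoL it was at 47.8% of the Model level, the highest share of the 9 genes. Igtp, a regulatory IRG also called Irgm3, had CPM values of 47.4, 43.9, 46.6 and 43.0 in the Blank libraries, 169, 157, 167 and 175 in the Model libraries and 75.3, 59.3, 64.3 and 64.5 in the IsoL libraries. The groups were separate, and the log2 changes were 1.88 ± 0.06 in Model and 0.54 ± 0.06 in IsoL against Blank (edgeR adjusted p = 8.3e-20 and 2.6e-08).

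Irgm1, the regulatory IRG that restrains effector IRGs and supports autophagy, had CPM values of 102, 99.6, 102 and 99.2 in the Blank libraries, 278, 273, 266 and 285 in the Model libraries and 110.3, 102, 99.3 and 109 in the IsoL libraries. The Model libraries stood apart, and IsoL and Blank overlapped. Irgm1 rose 2.74-fold in Model (edgeR adjusted p = 4.5e-20), and its log2 change from Blank to IsoL was 0.06 ± 0.05, which was not called (edgeR adjusted p = 0.24). Relative to library totals alone it was below Blank, at -0.13 (edgeR adjusted p = 0.0083), while the median log2 change over all genes tested was -0.18.

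**Figure D2:**
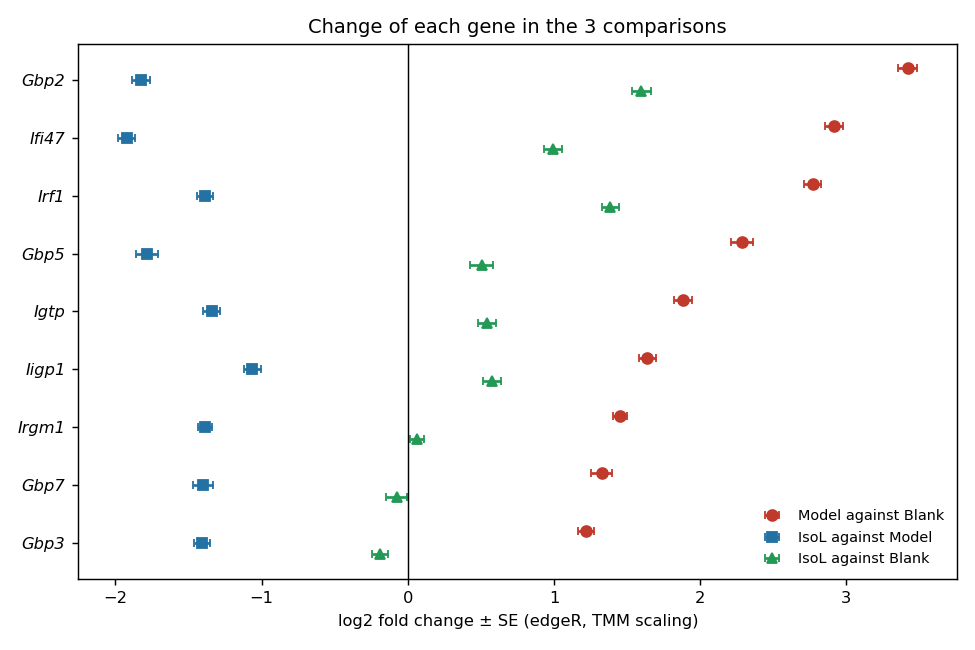
Log2 fold change ± SE (x axis) of each gene in Model against Blank (circles), IsoL against Model (squares) and IsoL against Blank (triangles), with genes ordered by their change in Model. All circles lie right of 0 and all squares left of it, and the triangles run from -0.19 (Gbp3) to 1.60 (Gbp2).

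In Model all 4 libraries lay above all 4 Blank libraries for each of the 9 genes, where the same held for 33.9% of all genes tested. In IsoL all 4 lay below all 4 Model libraries for each of the 9, against 22.2% of all genes. Against Blank, IsoL libraries were all higher for 6 genes (33.4% of all genes), were all lower for none (30.4% of all genes), and overlapped for 3.

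On the FPKM scale (fragments per kilobase of gene and per unit of library size), which allows levels of different genes to be set side by side, the order changed with group. In Blank the levels ran from Gbp2 (26.2 ± 2.20 FPKM, SD, n = 4) through Igtp (24.0), Gbp7 (22.6), Iigp1 (22.4) and Gbp3 (21.4), whose neighbours in this order overlapped, to Irgm1 (18.6), Irf1 (9.34), Ifi47 (8.98) and Gbp5 (5.95). Of these last levels, Irf1 and Ifi47 overlapped. In Model, Gbp2 stood clear at 255 ± 7.40 FPKM and Igtp was next at 80.5. From Iigp1 (63.4) through Ifi47 (61.8), Irf1 (58.0), Gbp7 (51.6) and Irgm1 (46.2) to Gbp3 (45.4), neighbours overlapped, and Gbp5 (26.4) lay below. In IsoL, Gbp2 (69.4 ± 5.31) again stood clear. Igtp (30.5) and Iigp1 (29.2) overlapped, then Irf1 (21.3), Gbp7 (18.8), Irgm1 (17.0), Gbp3 (16.5) and Ifi47 (15.7) followed with overlap between neighbours, and Gbp5 (7.39) was lowest.

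Of the 4 GBP genes, Gbp2, Gbp3 and Gbp7 had other shares of the family sum in Model than in Blank, and the shares of Gbp5 overlapped between all groups (5.16% in Blank, 5.36% in Model and 4.84% in IsoL). The summed level of 11 GBP genes was 115 ± 3.46 FPKM in Blank, 493 ± 18.4 in Model and 152 ± 8.42 in IsoL. Gbp2 made up 22.7% ± 1.33 of the sum in Blank, 51.8% ± 0.945 in Model and 45.6% ± 2.22 in IsoL, while Gbp3 went from 18.6% to 9.20% and 10.8%, and Gbp7 from 19.7% to 10.5% and 12.3%. The summed level of 12 IRG genes was 107 ± 3.60 FPKM in Blank, 334 ± 11.6 in Model and 124 ± 7.57 in IsoL. Ifi47 held 8.37% of the IRG sum in Blank, 18.5% in Model and 12.6% in IsoL, and Igtp held 22.3%, 24.1% and 24.6%.

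**Figure D3:**
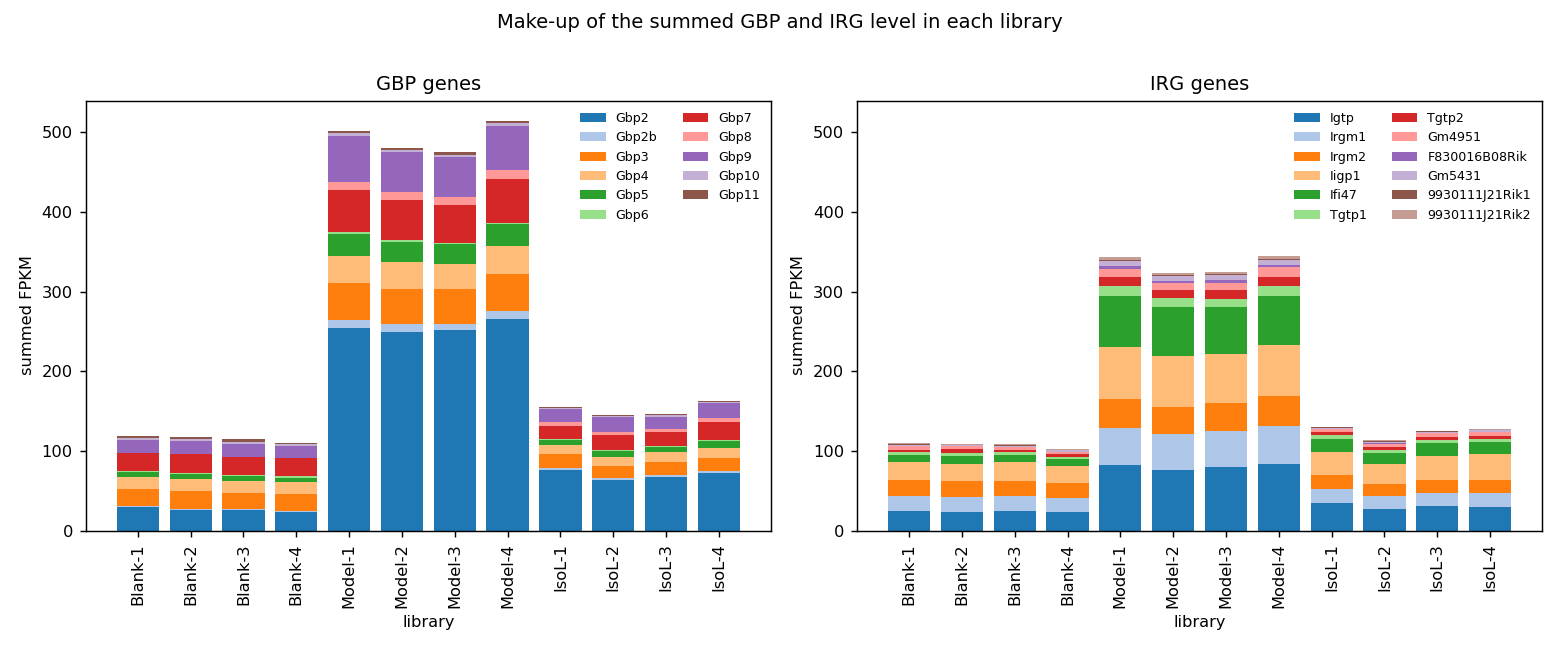
Summed FPKM (y axis, from 0) of the 11 GBP genes and the 12 IRG genes in each library, with 1 colour per gene. The Gbp2 segment is 22.7% of the GBP bar in Blank on average and 51.8% in Model, and the IRG bars reach 334 FPKM on average in Model against 107 in Blank.

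In the deposited table, for which no genome build is stated, the 4 GBP genes lie with Gbp2b on chromosome 3 between 142199739 and 142343769, in the order Gbp5, Gbp7, Gbp3, Gbp2b and Gbp2. The neighbours Gbp2b and Gbp2 had the larger changes of this cluster in Model, with log2 changes of 3.25 ± 0.11 and 3.42 ± 0.07, and Gbp7 and Gbp3 the smaller ones, 1.33 ± 0.07 and 1.22 ± 0.05. On chromosome 11, Irgm1 (48752795 to 48762510, minus strand) and Ifi47 (48967414 to 48987801, plus strand) flank other IRG genes, and Igtp lies at 58090382 to 58098417. Irf1 lies on chromosome 11 at 53660841 to 53669200.

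The other GBP genes moved less uniformly. Of 7 such genes, 6 rose in Model (median log2 change 1.28) and Gbp11 was not called (0.26, edgeR adjusted p = 0.06), and all 7 fell in IsoL against Model (median -1.20). In IsoL against Blank, Gbp2b, Gbp8 and Gbp9 were higher, and Gbp4, Gbp6, Gbp10 and Gbp11 were lower. With library totals alone, and in both limma-trend fits on FPKM, 2 were higher and Gbp9 was not called. Gbp8 had the largest rise, 4.78 ± 0.16 on the log2 scale, with 1.33 ± 0.259 CPM in Blank, 36.9 ± 1.76 in Model and 16.6 ± 3.66 in IsoL (SD, n = 4). Gbp2b had 2.26 to 3.18 CPM in Blank, 24.5 to 28.4 CPM in Model and 7.24 to 8.54 CPM in IsoL. Gbp4, -0.13 in IsoL against Blank, and Gbp6 and Gbp10, -0.55 and -0.59, were named after their values were seen. Counts of Gbp6 and Gbp10 are uncertain, since 70.7% and 84.1% of the 50-base words of their GENCODE M21 transcripts also occur in other genes. For Gbp8 this share was 18.1%, and the gene overlaps Gbp9 and Gbp4 on the same strand. It had 20 to 29 counts in each Blank library, so its fold change is uncertain as well.

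Of 11 other IRG and related genes, 8 passed the filter, and 7 of these rose in Model and fell in IsoL against Model, with median log2 changes of 1.69 and -1.49 over the 8. F830016B08Rik changed most in both, by 3.03 ± 0.25 and -2.18 ± 0.23, followed in Model by Gm5431 (2.34) and Tgtp2 (2.02). F830016B08Rik reached 1 FPKM in Model libraries only, so it passed the filter through the group where it was high. Irgq, named after its values were seen, was not called in Model (-0.04) and was higher in IsoL than in Model (0.55). In IsoL against Blank 6 of the 8 were higher with TMM scaling, but 2 higher and 1 lower with library totals alone. Tgtp1 and Tgtp2 share 81.2% and 86.6% of their 50-base words with other genes, mostly with each other, and are uncertain for that reason.

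Ifng, the gene of interferon-gamma itself, had 0 counts in every Blank library, 24, 44, 34 and 32 in Model and 10, 11, 14 and 15 in IsoL. It was at least 52.0-fold higher in Model and at least 17.4-fold higher in IsoL than in Blank, taking 3 counts over the Blank group as the floor. IsoL lay below Model by -1.57 ± 0.29 on the log2 scale (edgeR adjusted p = 7.8e-05), and the groups did not overlap. Ifng reached 1 FPKM in the Model libraries only, so it passed the filter through the group where it was high. Its p-value is therefore no separate support for a high level in Model. The floor covers counting error only, and no molecular identifiers are described.

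The receptor chains changed unequally in Model: Ifngr2 by 1.42 ± 0.06 and Ifngr1 by 0.40 ± 0.04 on the log2 scale. In IsoL, Ifngr2 was 1.97-fold above Blank, and the change of Ifngr1 was 0.10 and called with TMM scaling, -0.09 and not called with library totals alone, and -0.09 and called lower in both limma-trend fits on FPKM (limma adjusted p = 0.039 and 0.041). Jak2, the kinase bound to Ifngr2, had 79.0 to 88.8 CPM in Blank, 332 to 386 CPM in Model and 163 to 188 CPM in IsoL, and Jak1, the kinase bound to Ifngr1, changed by 0.31 ± 0.04 in Model.

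Nlrc5, the activator of MHC class I genes, was below Blank in IsoL by a log2 change of -0.70 ± 0.05 and was not called in Model (0.05, or -0.09 with library totals alone). Irf9, a factor of the type I interferon response, was lower in Model (-0.21) and lower still in IsoL (-0.79 against Blank).

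Irf8, which acts with Irf1 in myeloid cells, rose 12.3-fold in Model and was 7.05-fold above Blank in IsoL. Socs1, the feedback inhibitor of Jak kinases, rose 5.51-fold in Model and was 2.50-fold above Blank in IsoL. Of the 13 genes of this signalling list, 11 rose and 1 fell in Model, 12 fell in IsoL against Model, and 9 were higher and 3 lower in IsoL than in Blank (7 and 4 with library totals alone). Batf2, a factor induced by interferon-gamma in macrophages, rose by 3.70 on the log2 scale, and Ciita, the activator of MHC class II genes, was the gene not called in IsoL against Model (-0.11, edgeR adjusted p = 0.4).

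**Figure D4:**
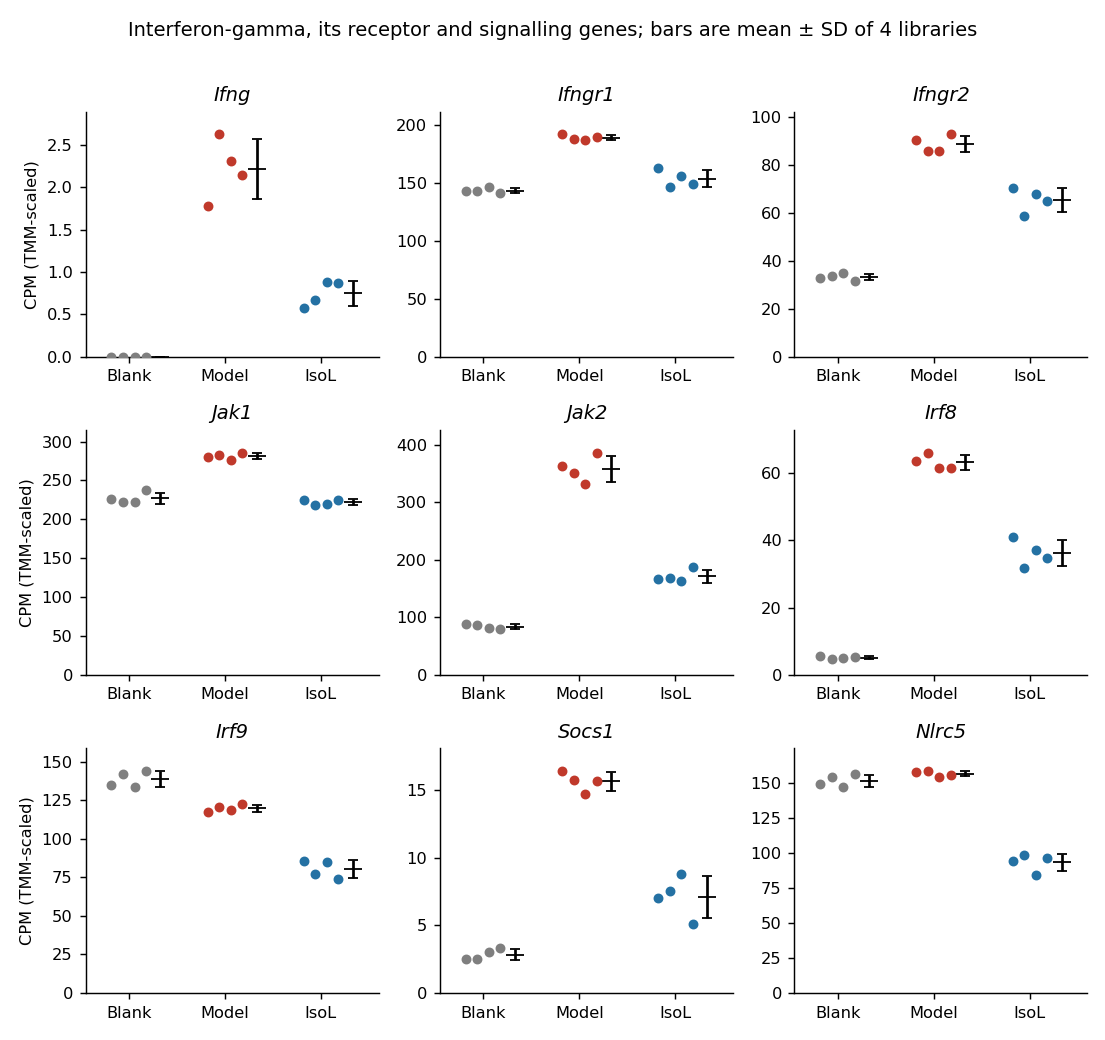
TMM-scaled CPM (y axis, from 0) of Ifng and of 8 receptor, kinase, factor and feedback genes in each library (points), with mean ± SD of 4 libraries. Ifng is at 0 in all Blank libraries and between 1.77 and 2.62 CPM in Model, and Irf9 and Nlrc5 are lower in IsoL than in Blank.

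Cytokines and receptors that drive interferon-gamma production were less uniform. Of 8 such genes 6 were tested, and 4 rose and 2 fell in Model (1 fell with RLE size factors and with DESeq2). Those that fell were Il12rb2, a chain of the interleukin-12 receptor (-1.26 on the log2 scale), and Il18. Il18 had 55.5 to 60.3 CPM in Blank, 48.2 to 56.1 CPM in Model and 59.5 to 74.9 CPM in IsoL. Il18rap, a chain of the interleukin-18 receptor, rose by 6.07 ± 0.09, and Il27 and Il12a rose by 3.80 and 3.42. All 3 were lower in IsoL than in Model (-2.10, -1.56 and -1.87). Il27 and Il12a reached 1 FPKM in Model libraries only, so they too passed the filter through the group where they were high. Il12b lay below the filter, with a mean of 0.142 CPM in Blank, 1.39 in Model and 0.657 in IsoL. Its groups did not overlap, and an exact two-sided permutation test gave p = 0.0286 in each comparison, the smallest that 4 against 4 libraries allow, and 0.0571 adjusted over the 6 tests on genes below the filter. Ifnb1, the interferon-beta gene, had at most 3 counts in any library, and the exact permutation p for Model against Blank was 0.143 (0.171 adjusted).

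Among 14 tested genes of a list of 15 that interferon-gamma also induces, all 14 rose in Model (median log2 change 2.76) and 13 fell in IsoL against Model (median -1.03). Nos2, the inducible nitric oxide synthase, rose by 6.20 ± 0.21 and in IsoL against Model fell by 4.30 ± 0.17. It reached 1 FPKM in Model libraries only, so it too passed the filter through the group where it was high. Its tests are therefore no separate support for a high level in Model. Cxcl9, a chemokine for T cells, rose by 6.05 ± 0.13. Cd274, the gene of PD-L1, fell by 2.49 ± 0.05 and Serpina3g by 1.98 ± 0.09 in IsoL against Model. In IsoL against Blank 13 of the 14 were higher (median 1.23) and Tap1, the peptide transporter, was lower (-0.17).

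The 18 type I interferon antiviral genes gave other values against Blank. In Model 16 rose and Mx2 fell (median log2 change 1.05), and in IsoL against Model all 18 fell (median -2.05). In IsoL against Blank 15 of the 18 were lower and Oas2, Oasl1 and Zbp1 were higher (median -0.95), where 6 of the 9 GBP, IRG and Irf1 genes were higher and Gbp3 was lower (median 0.54). With library totals alone, and in both limma-trend fits on FPKM, 2 of the 18 were higher and Oasl1 was not called. The difference between these lists was not tested. Rsad2, the antiviral enzyme viperin, had 52.4 to 56.9 CPM in Blank, 336 to 402 CPM in Model and 24.9 to 34.2 CPM in IsoL. Of 12 type I and III interferon and receptor genes 6 were tested, and 4 rose and Ifnlr1 fell in Model (3 rose and 2 fell with library totals alone), Ifnar2 by 1.69 and Il10rb by 1.53.

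**Figure D5:**
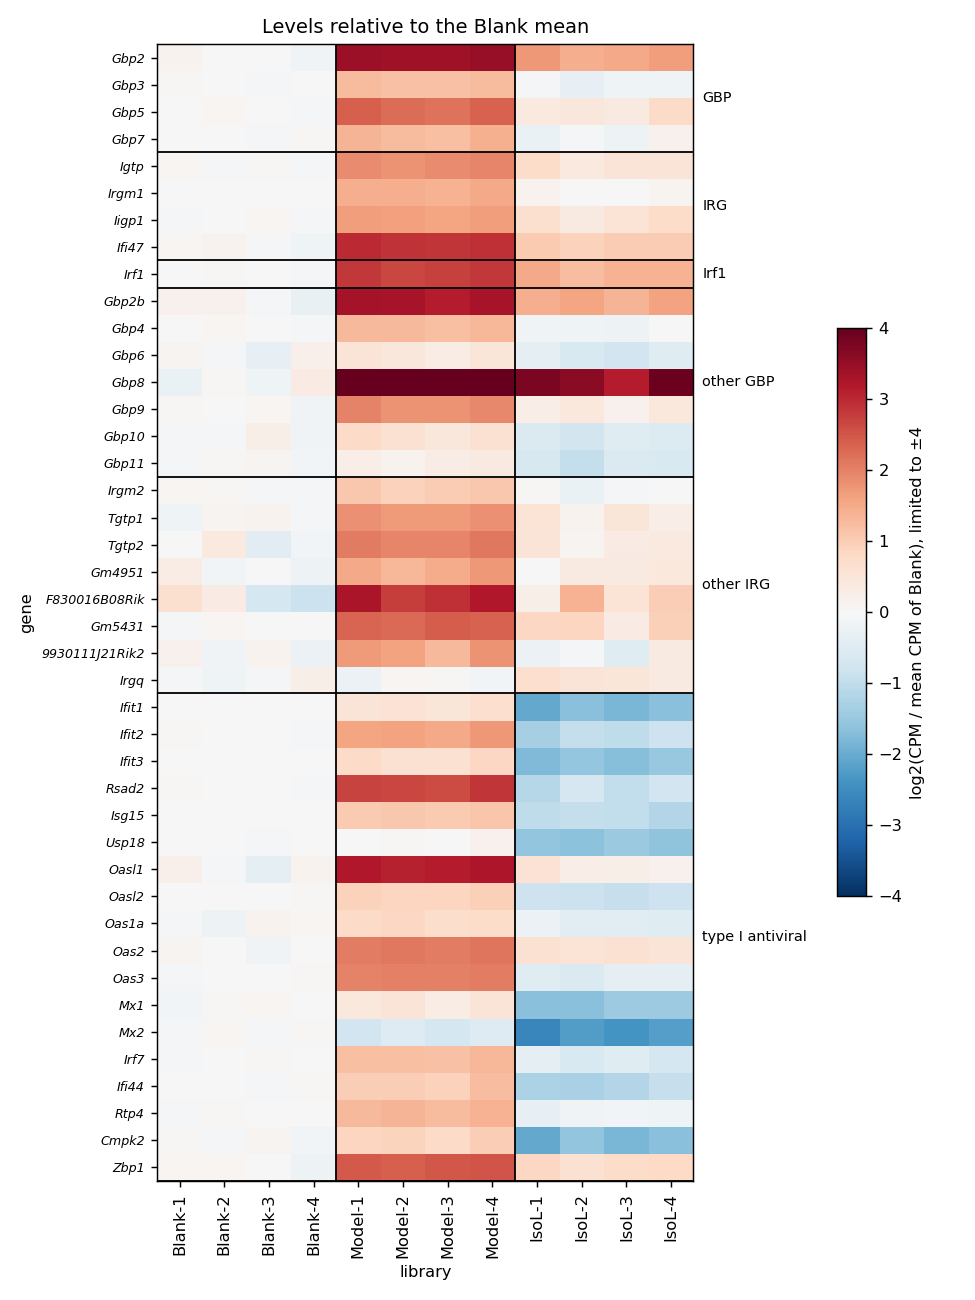
Log2 of the CPM of each library over the mean CPM of Blank (colour, limited to ±4; red above, blue below) for the tested GBP, IRG, Irf1 and type I antiviral genes (rows) in the 12 libraries (columns). Model columns are red for all 9 genes, and in the IsoL columns 15 of the 18 antiviral genes lie below Blank by the test and 3 above. Of the 9 genes, 6 lie above Blank by the test and Gbp3 below, and Gbp7 and Irgm1 were not called. Of the 7 other GBP genes, 3 lie above and 4 below.

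A further list held 11 genes that work beside GBPs and IRGs in the response to pathogens and in inflammasomes. Of these 8 rose and Pycard, the ASC adaptor, fell in Model, and 9 fell and 2, Gabarapl2 and Pycard, were higher in IsoL against Model. Il1b, the gene of interleukin-1 beta, rose by 8.31 ± 0.20 and Nlrp3, an inflammasome sensor, by 7.71 ± 0.15, and Casp4, the sensor of cytosolic lipopolysaccharide, rose by 2.92 ± 0.09. In IsoL against Model Nlrp3 fell by 3.15, Il1b by 2.84 and Tnfaip3 by 2.04.

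In whole-ear RNA, fewer cells of a type and less RNA per cell cannot be told apart. Markers of several cell types moved with the 9 genes. The summed level of 14 T and NK cell markers lay between 24.4 and 27.8 CPM in Blank libraries, between 107 and 115 CPM in Model libraries and between 51.2 and 66.3 CPM in IsoL libraries. The largest parts of the Model sum, named after their values were seen, were Gzmb (26.4 to 34.7 CPM), Cd4 (21.7 to 29.7 CPM) and Klrk1 (14.7 to 18.5 CPM). Of the 10 that were tested, 9 rose in Model and 7 fell in IsoL against Model. Ncr1, Klrk1, Prf1 and Cxcr3 would not have passed the filter without the Model libraries, the group where they were highest. This limits what their tests can show. Cd3e, a T cell marker, was not called in Model (log2 change 0.10, or -0.03 with library totals alone). Cd3d, another T cell marker, had 1.88 to 2.18 CPM in Blank and 4.11 to 4.65 CPM in Model. Eomes, a factor of NK and memory T cells, had 0 counts in Blank, and Ncr1, an NK receptor, rose by 6.67 ± 0.46 from 2 counts over the Blank group. Their part in the changes of the 9 genes was not tested.

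All 8 monocyte and macrophage markers rose in Model and fell in IsoL against Model, with sums of 269 to 284 CPM in Blank, 2179.7 to 2362 CPM in Model and 1014 to 1219.8 CPM in IsoL, and Cd14 rose by 6.75 on the log2 scale. All 6 neutrophil markers did the same, with sums of 42.8 to 87.8, 3256 to 3577 and 426 to 565 CPM. Ly6g was at 0 in Blank and passed the filter through its Model libraries only. All 5 endothelial markers rose in Model and were lower in IsoL than in Model, and their sum ranged over 137 to 150.3 CPM (Blank), 469 to 496 CPM (Model) and 284 to 329.8 CPM (IsoL). Of 3 tested dendritic cell markers Itgax and H2-Ab1 rose in Model and Cd207, a marker of Langerhans cells, fell by 2.19 on the log2 scale, while in IsoL against Model Itgax was lower and Cd207 higher; the sum of 6 was 89.6 to 92.1, 188 to 199 and 129 to 173 CPM. Whether these cells carry the GBP and IRG transcripts was not tested.

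Keratinocyte markers, which define the epidermis of the ear, were abundant in every library, at 15684 to 16767 CPM in Blank, 11235 to 13646 CPM in Model and 24078 to 27626 CPM in IsoL. In Model against Blank 3 of the 6 rose (Krt1, Krt14 and Dsg3) and 3 fell (Krt5, Krt10 and Trp63), and in IsoL against Blank 3 were higher and 2 lower. All 6 were higher in IsoL than in Model, the opposite direction to the 9 genes. The 5 fibroblast markers summed to 3835 to 4124 CPM in Blank, 4751 to 5071 CPM in Model and 3783 to 4216 CPM in IsoL. The 4 skeletal muscle and 4 cartilage markers fell in Model and were below Blank in IsoL, with sums of 2309.7 to 2504 and 909.7 to 985 CPM in Blank, 1124 to 1347 and 511 to 564 in Model, and 1139 to 1814 and 488 to 693 in IsoL.

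Within groups the 9 genes varied little. Their coefficients of variation had a median of 4.34% in Blank, 3.58% in Model and 8.83% in IsoL, with the highest, 14.1%, for Gbp5 in IsoL. IsoL replicate 1 was the highest IsoL library for 6 of the genes and replicate 4 for the other 3, Gbp5, Gbp7 and Iigp1, and IsoL replicate 2 was the lowest for 6. Deviations from the group means, over 12 libraries that share their depth scaling across genes, were most alike for Gbp5 and Gbp7 (Pearson r = 0.90) and for Igtp and Irf1 (0.86), and least alike for Gbp7 and Igtp (-0.32). These are descriptions of the libraries.

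Across all 12 libraries, where the differences between the groups set most of the correlation, Gbp2 and Irf1 had the most similar pattern among the 9 (Pearson r = 0.998, log2 CPM). The 8 other genes most like the mean pattern of the 9 were Ifi209, Ccr3, Sp110, Cd274, Mrgpra2a, Slfn5, Gm12250 and Zbp1, with r between 0.995 and 0.999. Correlations with the mean pattern used log2(CPM + 0.5). Ccr3 had means of 0.357 CPM in Blank and 1.16 in IsoL, and Mrgpra2a 0 and 0.502. The offset therefore weighs on the r of Ccr3 and Mrgpra2a. Ifi209 had a mean of 7.61 CPM in Blank, 83.3 in Model and 12.8 in IsoL. Such likeness was common: 602 of 15394 other genes (3.91%) had r of 0.95 or more.

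Some counts may be shared with overlapping genes, or be lost to both genes. This depends on how the counting treated overlaps and, for genes on opposite strands, on whether it used strand. No label states either. Igtp overlaps Irgm2 on the same strand (17590 and 17118 counts over the 12 libraries), and 11.8% of the 50-base words of Igtp transcripts occur in Irgm2. Ifi47 overlaps Olfr56 on the same strand (13626 and 628 counts), and Irf1 overlaps Gm17334 on the other strand (22655 and 666 counts). Of the words of Gbp7, 12.7% were shared, mainly with Gm43802, which overlaps Gbp7 on the same strand and had 0 counts. The remaining members shared 4.81% or less.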

How the data were processed

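Ear RNA of 12 libraries was measured by poly-A RNA sequencing. Per the submitters' processing notes the tools included fastp 0.22.0, HISAT2 2.1.0 and HTSeq 0.9.1; no build is named there or in the table. The deposited table holds, for each gene, the authors' raw counts and their FPKM values in every library; recomputing FPKM from the counts, the exonic lengths and the library totals gave the deposited values within rounding. Levels printed here as CPM were computed from the counts with TMM factors. Genes reaching 1 FPKM in 4 libraries or more were tested with edgeR 4.0.16 (R 4.3.3; quasi-likelihood test, robust, 1 fit of 3 groups, two-sided, Benjamini-Hochberg adjustment over 15403 genes). Ifng, Il12a, Il27, Nos2, F830016B08Rik and Ly6g reached 1 FPKM in Model libraries only. Ncr1, Klrk1, Prf1 and Cxcr3 reached it in some other libraries as well, but in too few to pass without Model. The filter thus admitted all these genes through the group where they were high, which limits what their tests can show. Genes below the filter were compared with an exact permutation test of CPM (SciPy 1.17.1). The scripts were checked on simulated counts with known changes. Alternatives used RLE size factors, no scaling factors, no filter, DESeq2 1.42.0, limma-trend (limma 3.58.1) on log2(FPKM + 1) and log2(FPKM + 0.1), only the groups compared, a replicate block and each library left out.

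The members and the gene lists were chosen with earlier results of these data known. Named genes are the members, 10 signalling genes, and up to 3 called genes per list with the largest change in Model against Blank and in IsoL against Model; genes named because few went against their list, or as neighbours or shared-sequence genes, were chosen after their values were seen. Protein sequences were not used here. The values of 1 signalling gene under this rule are not reported here. No pair of libraries of a group agreed within counting noise, so none was treated as 1 library deposited more than once.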

Additional observations from a re-analysis of the deposited data

Results flagged for a closer look

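Blank replicate 3 stood apart for Iigp1, at 129 CPM where the other Blank libraries had 118 to 120.2 CPM. The gap to the nearest library was 0.844 of the range of the group, above Dixon's 95% limit for a group of this size. It was the only such case among the 56 groups of 4 libraries examined, over 19 genes, and chance gives about 1 in 20. The Model and IsoL libraries of Iigp1 all lay above it.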

How the results depend on the processing

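All 9 members kept their rise in Model and their fall in IsoL against Model under all 20 alternatives. The count of members lower in IsoL than in Blank, 1 with TMM scaling, was 3 without scaling factors and with both limma-trend fits on FPKM, and 1 to 2 when a library was left out. Of all 15403 genes tested, 5234 were lower with TMM scaling and 7255 without scaling factors. In the limma-trend fits 7170 (FPKM + 1) and 7146 (FPKM + 0.1) were lower, so the rise in count was not particular to the members. The members that joined Gbp3 were Gbp7, with log2 changes of -0.27, -0.26 and -0.28, and Irgm1, whose direction turned to -0.13, -0.12 and -0.13 (from 0.06 with TMM). These fits carry no TMM factors, and in them the median of all genes was -0.18, -0.15 and -0.18. The replicate numbers did not pair the libraries: same-numbered libraries had correlations of -0.132 to 0.032 in their deviations from the group means, and 2 of 12 were closest to their own number. With the replicate block all members kept their calls, and the genes called went to 5386 up and 5329 down, 3645 and 3836, and 5600 and 5213 in Model against Blank, IsoL against Model and IsoL against Blank. With Spearman in place of Pearson correlation, 1 of the 8 genes nearest in pattern was kept. Low counts limit Ifng, Il12b and Ifnb1.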
